A study of Mus musculus with 23 samples.

Results

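Bulk tumors grown from B16F10 melanoma cells edited with sg492, a guide RNA against Nr2f6, were compared by RNA-seq with control tumors, 2 libraries against 2 among the 23 libraries of the series. The comparison covered the 13579 genes, of 47643 in the deposited table, with a mean of at least 1 TPM (the length-corrected unit of the deposited table) over those 4 libraries. Values were compared as log2(TPM + 1), a scale that understates the change of genes near or below 1 TPM. B16F10 is a mouse melanoma cell line of C57BL/6 origin, and the control libraries carry the genotype label WT. For the edited group, Cas9 protein and Cy3-labeled sgRNA were transfected together and Cy3+ cells were sorted, so the tumors came from a sorted pool of cells; no cloning step is described. The study's methods give subcutaneous injection of B16F10 cells into C57BL/6 male mice aged between 6 and 8 weeks, and also list NSG and NR2F6 KO hosts. Its RNA-seq methods do not name the host of the sequenced tumors. C57BL/6 hosts with intact Nr2f6 are assumed here for both groups. The libraries edited with the other guide, sg495 (2 bulk tumors), entered the fit for the estimate of spread and are given beside sg492 for reference. Whether the 2 libraries of a group came from separate mice is not given in the sources used here, so that p-values measure only the spread between these libraries.

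NR2F6 is an orphan nuclear receptor of the COUP-TF family that represses cytokine genes in T cells. Interferon-γ, made mainly by T and NK cells, signals through its receptor and JAK kinases and induces IRF1, and this response switches on guanylate-binding proteins, immunity-related GTPases, chemokines for CXCR3-bearing T cells, and the genes of antigen presentation. Type I interferons act through a complex that holds IRF9 and induce antiviral genes that overlap with this set. The question put to the bulk tumors was which transcripts of the tumor and of the cells in its microenvironment differ when the melanoma cells have been edited.

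With limma, 0 of the 13579 genes (0%) passed both thresholds, a fold of 1.5 or more and a p under 0.05 after Benjamini-Hochberg adjustment; the smallest adjusted p was 0.0857, and 31 genes passed when control replicate 1 was left out. The measurements below are therefore levels and spreads, and no gene is described as changed. At an unadjusted p below 0.05, 915 genes were higher in sg492 tumors (6.74% of those tested) and 218 lower (1.61%). Both sg492 libraries lay above both controls for 4215 genes (31%) and below both for 1539 (11.3%), and with a fold change of at least 1.5 these numbers were 506 (3.73%) and 97 (0.714%). The balance between the directions depended on scaling: 80.8% of the genes at an unadjusted p below 0.05 were higher on the deposited TPM, 52.3% after median-of-ratios scaling and 52.2% after quantile normalization. The median log2 fold change of all genes tested was 0.06 on the deposited TPM and -0.01 after median-of-ratios scaling, and list medians below are to be read against these values. An exact permutation test of 2 libraries against 2 cannot give a 2-sided p below 0.333.

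The 6 bulk tumor libraries had between 13330 and 13899 genes at 1 TPM or more, and mitochondrial genes took from 4.73% to 6.70% of the TPM, with both extremes in the control group. The labels give depths of 23000000 to 31000000 reads; TPM keep no count, so no counting interval was derived. Across the genes tested, Pearson's r between the 2 libraries of a group was 0.9794 for control, 0.9791 for sg492 and 0.9833 for sg495, and 994, 767 and 816 genes differed by at least 1.5-fold within the pair. Pigment genes, which define the melanoma cells, were abundant in all libraries: Tyrp1, a melanosomal enzyme, stood at 5212 and 4824 TPM in the controls and 5675 and 5351 TPM in sg492 tumors, and the 19 tested melanocyte genes had a median log2 fold change of 0.03. Control replicate 2 was the lowest of the 6 libraries for all 18 interferon-inducible GTPases and 33 of 36 antiviral genes, and sg492 replicate 1 held transcripts of hair follicles; medians of the immune and stromal lists and of cholesterol synthesis that moved by over 1.5 times without a library are given with and without it, and keratin values are given library by library.

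The edited gene itself differed little at the RNA level. Nr2f6 (ENSMUSG00000002393, chr8:71374123-71381960 of GRCm38, minus strand) stood at 25.8 and 25.2 TPM in the controls and 22.3 and 23.3 TPM in sg492 tumors, a log2 fold change of -0.16 ± 0.09 (SE) with a limma adjusted p of 0.674, and at 17.2 and 15.8 TPM in sg495 tumors. A Cas9 cut can disrupt the protein without removing the transcript, so this level does not measure editing. In cultured cells, without host tissue, Nr2f6 stood at 31.9 and 32.9 TPM in the controls and 26.6 and 31.5 TPM with sg492. In sorted tumor cells it stood at 20.3 and 17.7 TPM against 19.8 and 25.7 TPM. The study reports checking the knockout by immunoblot and by sequencing the targeted regions. The part of host transcript in the bulk level was not tested. The study drew Nacc1 and Fkbp10 from its sg495 libraries, as genes lower in bulk tumors, sorted cells and cultured cells alike. It followed both by qPCR and reports NR2F6 binding at Nacc1 by ChIP. The sg492 values here come from the other guide and do not repeat that selection. Nacc1, a BTB-domain transcriptional regulator named by the study as an NR2F6 target, had a log2 fold change of -0.04. It stood at 74.2 and 75.2 TPM in the controls and 71.4 and 74.4 TPM in sg492. Fkbp10, a collagen chaperone of the endoplasmic reticulum named alongside it, had -0.07; its 2 controls, at 34.1 and 44.6 TPM, enclosed both sg492 libraries, and the sign turned to 0.12 without control replicate 2. Of the other candidate receptors of the study, Esrra had a log2 fold change of -0.16, Nr1h3 of 0.38 and Nr3c1 of 0.14, with limma adjusted p from 0.683 to 0.763.

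**Figure D1:**
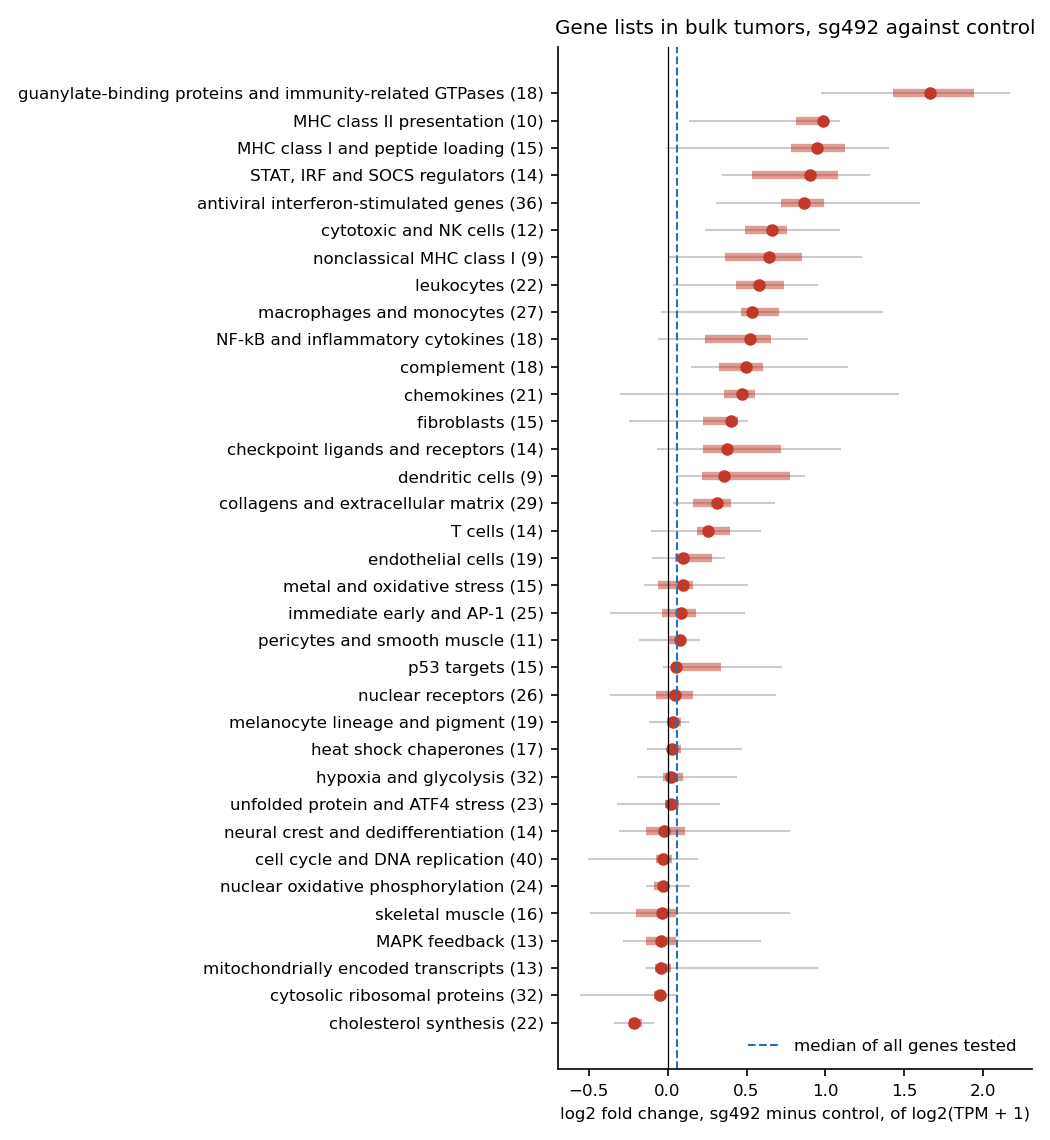
Log2 fold change of gene lists in bulk tumors, sg492 minus control, on log2(TPM + 1), for lists with at least 9 tested members (number in brackets). Points mark the median, thick bars the middle quartiles, thin lines the lowest and highest member, and the dashed line the median of all 13579 genes (0.06); GBPs and immunity-related GTPases lie highest with a median of 1.66 and cholesterol synthesis lowest with -0.21.

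The group that stood furthest above the controls was that of the guanylate-binding proteins (GBPs) and immunity-related GTPases (IRGs), interferon-inducible GTPases that attack the vacuoles of intracellular pathogens. All 18 members were tested, 1 of them, Gbp2b, with a control mean under 1 TPM. All 18 had a positive log2 fold change (65.74% of all genes did), with a median of 1.66. Both sg492 libraries lay above both controls for 17 (31% of all genes), and 16 had an unadjusted limma p below 0.05 (6.74%). Their smallest limma adjusted p was 0.465. Summed over the list, the level was 797 and 234 TPM in the controls, 1417 and 1535 TPM in sg492 tumors, and 1900 and 1318 TPM in sg495 tumors. The sg492 libraries lay close together, whereas the controls differed by more than 3-fold.

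The size of the difference thus rested on which control was used. Without control replicate 2 the list's median log2 fold change was 0.87, and without control replicate 1 it was 2.55; all 18 members stayed positive without replicate 2. After median-of-ratios scaling the median was 1.59. For the 22 general leukocyte markers the median was 0.58, and in bulk tissue more cells of a type cannot be told apart from more RNA per cell.

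Among single members, Gbp2 (ENSMUSG00000028270) stood at 97.2 and 26.6 TPM in the controls and 220 and 192 TPM in sg492 tumors. Its log2 fold change was 1.99 ± 0.54 (SE), with a limma adjusted p of 0.486. Tgtp1, a GTPase of the IRG family, had the largest log2 fold change among the genes chosen by rank, 2.17 ± 0.69 (SE) with a limma adjusted p of 0.503. It stood at 88.4 and 17.4 TPM in the controls and 166 and 199 TPM in sg492 tumors. Its near-identical copy Tgtp2 stood at 104 and 26.2 TPM against 160 and 187 TPM, and reads shared by the pair cannot be assigned with certainty. The same holds for the GBP genes of chromosome 5, Gbp4, Gbp6, Gbp8, Gbp9 and Gbp10, which are close paralogs. Gbp4 stood at 23.8 and 3.36 TPM against 42.1 and 41.4 TPM, Gbp6 at 33.9 and 6.37 TPM against 60.9 and 64.8 TPM, and Gbp10 at 6.85 and 0.77 TPM against 19.8 and 11.3 TPM, with log2 fold changes of 2.04, 1.99 and 2.10. In each of these genes both sg492 libraries exceeded the higher control, and the lower control was always replicate 2.

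The IRG genes showed the same order of libraries. Igtp, a GTPase that clears Toxoplasma vacuoles, stood at 86.2 and 25.3 TPM in the controls and 153 and 153 TPM in sg492. Irgm1, which regulates the other IRG proteins, stood at 146 and 66.2 TPM against 232 and 300 TPM, and Iigp1 at 61.5 and 16.5 TPM against 106 and 123 TPM. The log2 fold changes were 1.69, 1.42 and 1.80, all with adjusted p between 0.48 and 0.51. Gbp2b, at 1.34 and 0.05 TPM against 3.51 and 1.21 TPM, was the member whose groups overlapped, and it passed the expression filter only through the sg492 libraries.

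These GTPase genes lie in clusters. Gbp5, Gbp7, Gbp3, Gbp2b and Gbp2 occupy chr3:142493978-142638008, the chromosome 5 paralogs chr5:105014150-105293698, Irgm1, Tgtp1, Tgtp2 and Ifi47 chr11:48861968-49096974, and Igtp with Irgm2 chr11:58199556-58222782 (GRCm38). Their promoters were read from RefSeq (GRCm38.p6, 250 bases before to 50 after each annotated start), where 11 of the 18 genes had an entry. The motif GAAANNGAAA, the core of the interferon-stimulated response element bound by IRF and ISGF3 complexes, was searched on both strands and occurred in 10 of these 11 genes (90.9%), against 1079 of 27025 genes with a promoter entry (3.99%); the 12 antiviral genes with the motif among 26 with a promoter (46.2%) and the 3 of 13 of the MHC class I list (23.1%) stand between. The motif TTCNNNGAA, the gamma-activated site of interferon-γ target genes, reads alike on both strands and was present in 6 of the 11 genes and 9.55% of all genes. The windows below show the motif in capitals with 20 bases on either side, 5′ to 3′ in the direction of the gene, for 8 of the 10 genes; they show how alike the IRG promoters are, and a match of letters is not a bound site. Igtp (chr11:58199502-58199551, plus strand) and Irgm2 (chr11:58214893-58214942, plus) are followed by Tgtp1 (chr11:48992294-48992343, minus), Tgtp2 (chr11:49064253-49064302, minus), Irgm1 (chr11:48871415-48871464, minus), Gbp2 (chr3:142620584-142620633, plus), Gbp3 (chr3:142559985-142560034, plus) and Gbp7 (chr3:142530263-142530312, plus).
Igtp: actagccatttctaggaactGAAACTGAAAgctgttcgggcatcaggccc
Irgm2: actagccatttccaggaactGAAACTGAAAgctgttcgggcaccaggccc
Tgtp1: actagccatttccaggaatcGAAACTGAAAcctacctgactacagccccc
Tgtp2: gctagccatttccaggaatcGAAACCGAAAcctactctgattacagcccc
Irgm1: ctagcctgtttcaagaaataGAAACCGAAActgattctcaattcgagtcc
Gbp2: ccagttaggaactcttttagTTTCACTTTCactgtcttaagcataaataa
Gbp3: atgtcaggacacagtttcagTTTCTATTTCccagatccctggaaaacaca
Gbp7: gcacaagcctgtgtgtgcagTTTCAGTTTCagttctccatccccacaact

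In the 5 IRG genes shown the motif lies on the strand of the gene, and in the 3 GBP genes on the opposite strand, so that the capitals are the reverse complement of the motif. Irgm2 stood at 27 and 11.6 TPM in the controls and 48.0 and 52.7 TPM in sg492 tumors, Gbp3 at 24 and 7.72 TPM against 44.8 and 44.9 TPM, and Gbp7 at 23.6 and 6.77 TPM against 42.4 and 46.7 TPM. These GTPases too had both sg492 libraries above the higher control. Ifi47 was the 1 gene of the 11 whose window did not hold these letters; it stood at 54.5 and 12.4 TPM in the controls and 78.3 and 84.1 TPM in sg492 tumors.

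**Figure D2:**
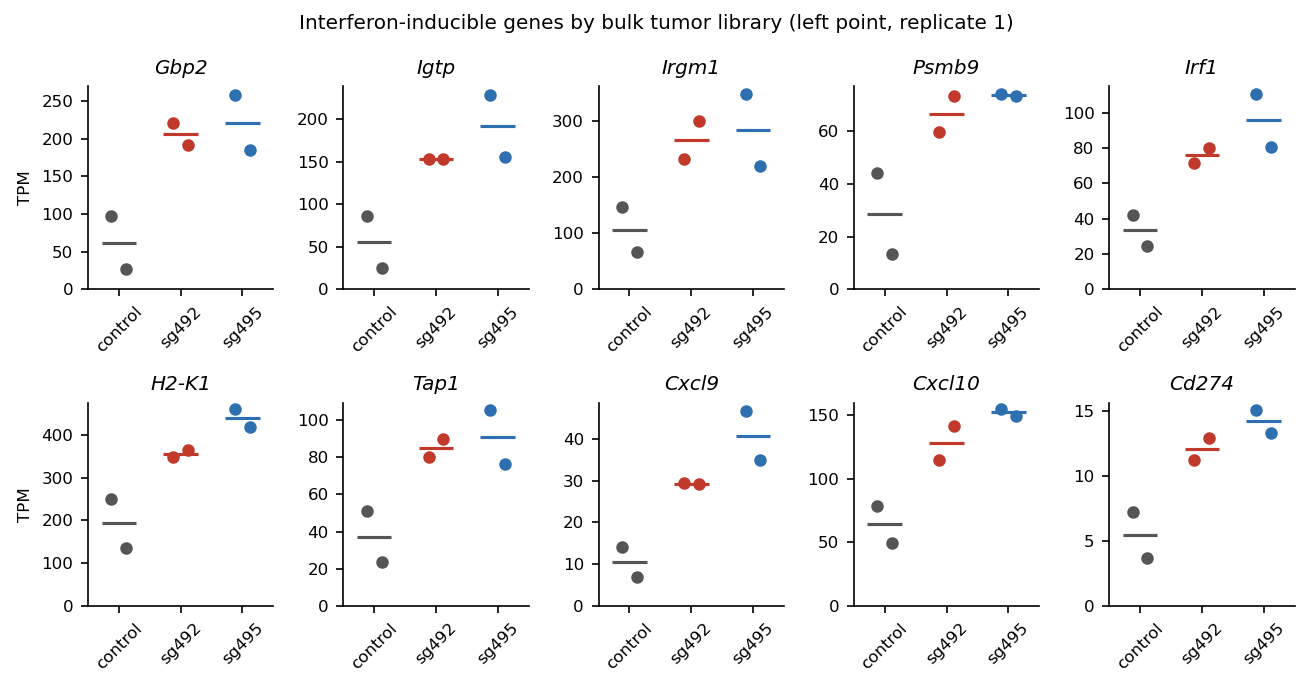
TPM of 10 interferon-inducible genes in each bulk tumor library (points, replicate 1 on the left) with the group mean (line), linear axes from 0. In all 10 genes both sg492 libraries lie above both controls and control replicate 2 is the lowest library.

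The factors that carry the interferon signal were higher too. Of 14 STAT, IRF and SOCS regulators, all tested, 14 had a positive log2 fold change (65.74% of all genes did). Non-overlapping groups were seen in 12 (31% of all genes) and an unadjusted p below 0.05 in 12 (6.74%). The median was 0.90, and 0.56 without control replicate 2. Irf1, a transcription factor induced early by interferon-γ, stood at 42.2 and 24.6 TPM in the controls and 71.8 and 79.8 TPM in sg492 tumors, a log2 fold change of 1.20. Of its 2 promoters in RefSeq, 1 held no motif searched and the other held a gamma-activated site, in capitals in the window chr11:53769904-53769952 (plus strand), shown because it is the textbook entry point of the response.
Irf1: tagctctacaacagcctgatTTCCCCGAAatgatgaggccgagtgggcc

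Socs1, the feedback inhibitor of the pathway, stood at 3.71 and 2.14 TPM in the controls and 6.76 and 6.97 TPM in sg492. Nlrc5, the transactivator of MHC class I genes, had a log2 fold change of 1.11 and Ciita, that of MHC class II genes, of 1.09. Socs3 and Irf2 were the members whose groups overlapped. The transcript of interferon-γ itself, Ifng, lay below the filter, at 0.34 and 0.18 TPM in the controls and 1.14 and 0.70 TPM in sg492. Of the 10 genes of the IFN-γ signature that the study used, 7 passed the filter. All 7 had non-overlapping groups (31% of all genes did) and 5 an unadjusted p below 0.05 (6.74%). The median was 0.98, or 0.56 without control replicate 2. Below the filter were Ifng, Cxcl11 and Ido1. Ido1, an enzyme that degrades tryptophan, was at 0.09 and 0.00 TPM against 0.19 and 0.21 TPM.

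Antiviral interferon-stimulated genes were higher in sg492 tumors throughout the list, without an adjusted call. All 36 members were tested and all had a positive log2 fold change (65.74% of all genes did). Non-overlapping groups were seen in 35 (31% of all genes) and an unadjusted p below 0.05 in 34 (6.74%). The median was 0.86 (0.61 without control replicate 2, 0.80 after median-of-ratios scaling). Zbp1, a sensor of Z-form nucleic acids that can trigger necroptosis, stood at 36.2 and 12.1 TPM in the controls and 70.1 and 62.0 TPM in sg492 tumors, the largest difference in the list (1.60). Isg15, a ubiquitin-like modifier, stood at 32.5 and 19.9 TPM against 53.6 and 56.6 TPM. Oasl2, of the oligoadenylate synthetase family, stood at 20.8 and 11.2 TPM against 39.0 and 44.7 TPM. These genes again had both sg492 libraries above the higher control. The smallest difference was that of Ifi27, at 151 and 156 TPM against 174 and 208 TPM (log2 fold change 0.31, adjusted p of 0.628), and Oasl1 was the member with overlapping groups.

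Genes of MHC class I antigen presentation followed. Of 15 members, all tested, 14 had a positive log2 fold change (65.74% of all genes did). Non-overlapping groups were seen in 13 (31% of all genes) and an unadjusted p below 0.05 in the same number (6.74%). The median was 0.95, 0.53 without control replicate 2 and 0.87 after median-of-ratios scaling. The heavy chain H2-K1 stood at 250 and 136 TPM in the controls and 349 and 365 TPM in sg492 tumors, and its light chain B2m at 1180 and 739 TPM against 1491 and 1723 TPM. Tap1, a subunit of the transporter that brings peptides into the endoplasmic reticulum, stood at 51.0 and 23.7 TPM against 80.1 and 89.8 TPM, and Psmb9, an immunoproteasome subunit, at 44.3 and 13.3 TPM against 59.7 and 73.4 TPM. The log2 fold changes were 0.95, 0.78, 1.26 and 1.40, with adjusted p between 0.48 and 0.53. The general chaperones of the endoplasmic reticulum in the list lay near 0: Calr had a log2 fold change of -0.01 and Pdia3 of 0.04, each with overlapping groups. Among 9 nonclassical class I genes the median was 0.64 (0.21 without control replicate 2). Of these, 5 had an unadjusted p below 0.05 (6.74% of all genes) and 6 did not overlap (31%). H2-T23, the ligand of inhibitory NK receptors, stood at 40.9 and 17.9 TPM against 72.7 and 58.0 TPM. Mr1, which presents vitamin metabolites, stood at 11.8 and 13.2 TPM against 12.4 and 12.8 TPM.

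MHC class II genes, which in a tumor are read mainly from antigen-presenting cells, had 10 of 12 members past the filter. All 10 had non-overlapping groups (31% of all genes did) and 8 an unadjusted p below 0.05 (6.74%). The median was 0.98, or 0.49 without control replicate 2. H2-Aa stood at 182 and 81.7 TPM in the controls and 235 and 248 TPM in sg492 tumors. Cd74, the invariant chain that guards the peptide groove, stood at 281 and 140 TPM against 371 and 432 TPM. Ifi30, a lysosomal thiol reductase, differed least, from 120 and 110 TPM to 129 and 124 TPM. In the fit without control replicate 1, 4 class II genes passed the calling threshold among others (H2-Aa, H2-Ab1, H2-Eb1 and H2-DMa), and Cd74 as well.

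Chemokine genes were mixed. Of 23 in the list, 21 were tested, 1 of them with a control mean under 1 TPM; 19 had a positive log2 fold change (65.74% of all genes did), 12 had non-overlapping groups (31%) and 9 an unadjusted p below 0.05 (6.74%), with a median of 0.47 (0.32 without control replicate 2). The CXCR3 ligands, which draw activated T and NK cells, led the list: Cxcl9 stood at 14.0 and 7 TPM in the controls and 29.4 and 29.2 TPM in sg492 tumors (log2 fold change 1.47 ± 0.29 SE), and Cxcl10 at 78.9 and 49.4 TPM against 115 and 141 TPM (1.01 ± 0.21 SE), both with a limma adjusted p of 0.465. The promoter of Cxcl10 held the interferon-stimulated response element, in capitals in the window chr5:92349073-92349122 (minus strand).
Cxcl10: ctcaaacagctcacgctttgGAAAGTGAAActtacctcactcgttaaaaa

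The monocyte attractants followed at smaller differences. Ccl2 stood at 35.7 and 28 TPM against 41.5 and 48.4 TPM, and Ccl6 at 101 and 106 TPM against 142 and 164 TPM, the latter with controls close together (log2 fold change 0.55 ± 0.08 SE, adjusted p of 0.443). The neutrophil attractants Cxcl1, Cxcl2, Cxcl3 and Cxcl5 had overlapping groups; each was lower in sg492 replicate 1 than in replicate 2, as in Cxcl5 with 2.10 and 8.20 TPM. Ccl5, made by T cells and macrophages, stood at 30.5 and 15.0 TPM against 23.4 and 27.7 TPM, so the sg492 libraries lay between the controls. Among checkpoint molecules, 14 of 18 passed the filter, 2 of them only through the sg492 libraries, so no count over the list is given. Cd274, which encodes PD-L1, stood at 7.24 and 3.71 TPM in the controls and 11.2 and 12.9 TPM in sg492 (log2 fold change 1.06). Cd47, the signal against phagocytosis, had tight groups, at 43.6 and 43.5 TPM against 55.1 and 56.7 TPM. Pdcd1lg2, for PD-L2, at 0.52 and 0.43 TPM against 1.78 and 2.58 TPM, and Pdcd1, for PD-1, at 1.3 and 0.48 TPM against 2.12 and 2.94 TPM, passed the filter only through sg492.

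Markers of immune cells were also higher, though not for every cell type. Of 22 general leukocyte genes, all tested, 22 had a positive log2 fold change (65.74% of all genes did). Non-overlapping groups were seen in 18 (31% of all genes) and an unadjusted p below 0.05 in 14 (6.74%). The median was 0.58, and 0.33 without control replicate 2. The summed level of these leukocyte genes was 1075 and 908 TPM in the controls and 1158 and 1237 TPM in sg492 tumors. Of this, Arhgdib alone gave 613 to 677 TPM. In cultured melanoma cells the same list summed to 549 and 575 TPM in the controls and 611 and 606 TPM with sg492. There 6 of the 22 genes had a mean of at least 1 TPM, so the sum is not of host cells alone. Ptprc, the common leukocyte antigen CD45, had a log2 fold change of 0.93, and Itgb2, the β2 integrin chain, stood at 21.1 and 15.3 TPM against 30.1 and 32.1 TPM. In the macrophage and monocyte list 27 of 28 genes were tested, 20 did not overlap (31% of all genes) and 15 had an unadjusted p below 0.05 (6.74%); the median was 0.53, or 0.34 without control replicate 2 and 0.80 without control replicate 1. Ly6c2, a marker of inflammatory monocytes, stood at 17.4 and 8.35 TPM against 30.9 and 35.0 TPM, Ccr2, the receptor that recruits them, at 6.6 and 5.34 TPM against 14.9 and 10.6 TPM, and Fcgr1, a high-affinity Fc receptor and interferon target, at 11.1 and 6.75 TPM against 18.4 and 21.9 TPM. The groups overlapped for C1qa and C1qc, complement genes of macrophages, and Apoe had a log2 fold change of -0.04. The share of the interferon-inducible levels that goes with these markers was not tested.

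T cell genes did not stand apart from the controls. Of 22, 14 passed the filter, 2 of them with a control mean under 1 TPM, and 13 had a positive log2 fold change (65.74% of all genes did). But 1 alone, Tcf7, had non-overlapping groups (31% of all genes) and an unadjusted p below 0.05 (6.74%). The median was 0.26, with -0.09 without control replicate 2 and 0.63 without control replicate 1. Cd3e, the CD3 epsilon chain of T cells, stood at 2.19 and 0.55 TPM in the controls and 1.26 and 1.26 TPM in sg492 tumors, and Cd8a, the coreceptor of cytotoxic T cells, at 2.57 and 0.51 TPM against 2.06 and 2.05 TPM. For both genes the 2 controls enclosed the edited tumors. The same genes stood at 1.79 and 3.35 TPM and at 2.48 and 4.59 TPM in sg495 tumors. Over the 14 tested T cell genes the median log2 difference, sg492 minus sg495, was -0.58. Of these genes, 2 were lower in sg492 than in sg495 tumors at an unadjusted limma p below 0.05, as were 4.4% of all genes. Among cytotoxic and NK genes, 12 of 20 passed the filter, 4 of them with a control mean under 1 TPM, so no count over the list is given. Klrk1, for the activating receptor NKG2D, stood at 3.89 and 2 TPM against 6.88 and 7.49 TPM. Gzmb, the granule protease, stood at 8.96 and 3.20 TPM against 10.6 and 11.2 TPM. In both genes the sg492 libraries lay above both controls, whereas Nkg7 overlapped. The B cell genes Ms4a1 and Pax5 were at 0.21 TPM or less in all 6 bulk libraries, and the neutrophil genes Ly6g, Camp and Ngp were listed at 0. Other members of both lists were present. The 15 B cell and plasma cell genes summed to 10.7 and 8.28 TPM in the controls and 14.8 and 10.7 TPM in sg492 tumors. The 14 neutrophil genes summed to 19.6 and 8.96 TPM against 13.1 and 24.3 TPM.

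Among stromal genes, all 29 tested collagen and matrix genes had a positive log2 fold change (65.74% of all genes did), 22 with non-overlapping groups (31% of all genes) but 4 at an unadjusted p below 0.05 (6.74%), and the median was 0.31 (0.24 after median-of-ratios scaling, where 28 were positive, and 0.15 without sg492 replicate 2). Col1a1, the main fibrillar collagen, stood at 92.2 and 72.2 TPM against 106 and 121 TPM, and Fn1, fibronectin, at 75.7 and 68.7 TPM against 89.8 and 103 TPM. Of 15 fibroblast genes 10 were higher without overlap, against 31% of all genes, and with limma 0 had an unadjusted p below 0.05, against 6.74%; their median was 0.40, or 0.23 without control replicate 2. Endothelial genes had a median of 0.10 (0.24 without control replicate 1), near that of all genes. Complement genes, of which 18 of 21 were tested, all had a positive log2 fold change, 13 without overlap (31% of all genes), with a median of 0.50, or 0.36 without control replicate 2 and 0.71 without control replicate 1. C4b, a component of the classical pathway, had libraries close together within each group, at 17.8 and 16.4 TPM in the controls, 32.5 and 29.0 TPM in sg492 tumors and 53.1 and 53.8 TPM in sg495 tumors. Its log2 fold change of 0.81 ± 0.09 (SE) had a limma adjusted p of 0.443.

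**Figure D3:**
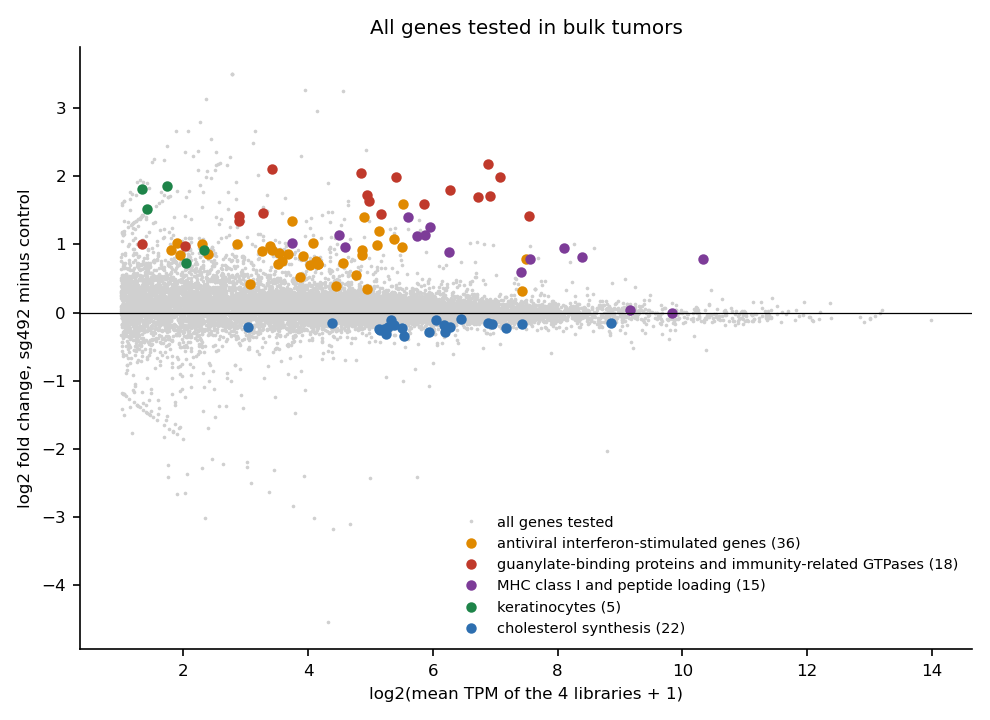
Log2 fold change, sg492 minus control, against log2(mean TPM of the 4 libraries + 1) for all 13579 genes tested (gray), with members of 5 lists in color. Interferon-inducible GTPases reach 2.17, the 22 cholesterol synthesis genes lie between -0.09 and -0.34, and the 5 tested keratinocyte genes sit at low expression.

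Genes of cholesterol synthesis had the lowest median among lists with at least 9 tested members. They encode the enzymes of the mevalonate and sterol pathway and their regulators, which are governed together by SREBP2 when sterols run low. All 22 members were tested and all 22 had a negative log2 fold change; 15 had both sg492 libraries below both controls (11.3% of all genes did) and 6 an unadjusted p below 0.05 (1.61% of all genes), with a median of -0.21. Idi1, which isomerizes isopentenyl diphosphate, stood at 66.0 and 67.0 TPM in the controls and 52.7 and 55.7 TPM in sg492 tumors (log2 fold change -0.29 ± 0.07 SE, adjusted p of 0.465). Acat2, which makes acetoacetyl-CoA for the pathway, stood at 77.3 and 81.1 TPM against 66.3 and 63.3 TPM, and Mvd, the mevalonate diphosphate decarboxylase, at 38.0 and 37.6 TPM against 30.8 and 32.2 TPM. In these 3 genes the controls were close together and the groups well separated.

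The median of the list depended on control replicate 2, the highest of the 4 libraries for 21 of the 22 members. Mvk, mevalonate kinase, stood at 30.8 and 44.4 TPM against 31.0 and 31.0 TPM. Without control replicate 2 the list's median was -0.08 and 4 members turned positive; without control replicate 1 it was -0.31, and after median-of-ratios scaling -0.28 with no member positive. Srebf2, which encodes SREBP2, stood at 75.2 and 76.6 TPM against 64.3 and 69.4 TPM. The letters TCACNCCAC of the sterol regulatory element, searched on both strands, were found in the promoter of 1 of 14 members with a RefSeq entry, Hmgcs1, which encodes HMG-CoA synthase (window chr13:119690194-119690242, plus strand, motif in capitals), and in 1.44% of all genes.
Hmgcs1: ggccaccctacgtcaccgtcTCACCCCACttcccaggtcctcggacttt

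Hmgcs1 stood at 76.1 and 87.8 TPM in the controls and 65.9 and 75.1 TPM in sg492 tumors. The sg495 tumors, at 87.1 and 72.4 TPM, spanned most of this range. In sorted tumor cells, which were depleted of stroma, 2 of the 22 members were positive for sg492 and the median was -0.19, and in cultured cells 7 were positive and the median was -0.05; Idi1 stood at 76.8 and 79.6 TPM in sorted controls and 71.1 and 55.5 TPM in sorted sg492 cells.

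**Figure D4:**
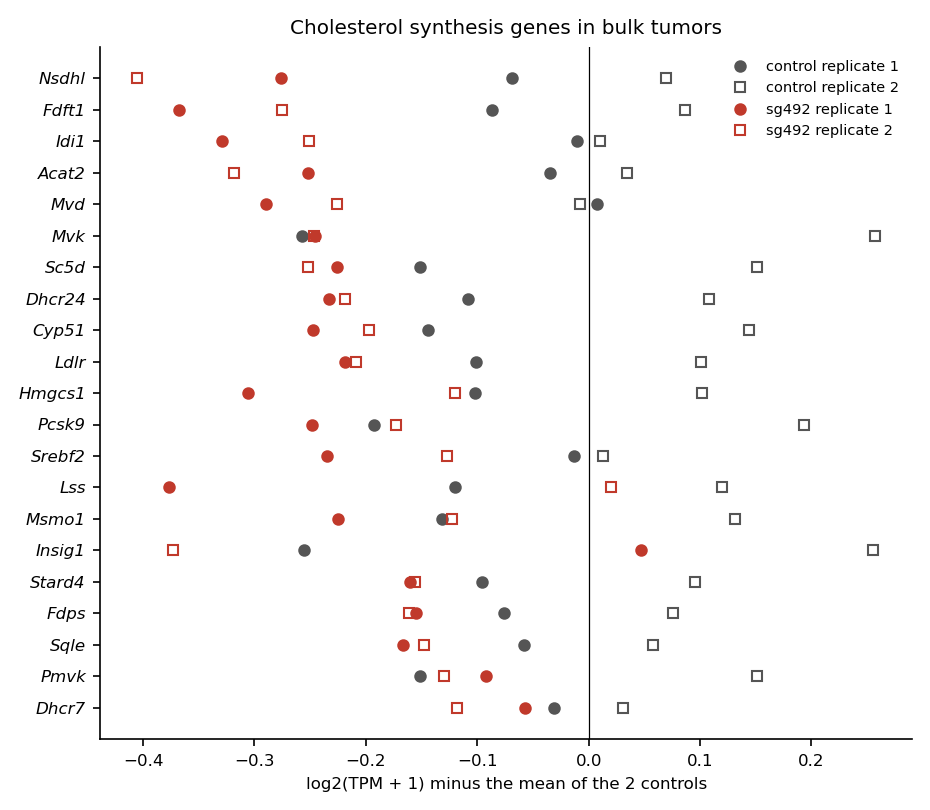
Log2(TPM + 1) of 21 cholesterol synthesis genes in each of the 4 libraries, minus the mean of the 2 controls of that gene; circles are replicate 1, squares replicate 2. All 21 sg492 means lie below 0, and control replicate 2 lies right of control replicate 1 in 20 of them.

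Skin transcripts separated the libraries in another way. In sg492 replicate 1, 48 genes stood at 3 TPM or more while all 5 other bulk libraries were below 1 TPM, against 9 to 23 such genes in each other library. Of the 48, 27 encode keratins or keratin-associated proteins of the hair shaft and inner root sheath, which sum to 206 TPM, and no such gene was among those of the other libraries. Krt71, an inner root sheath keratin, stood at 31.7 TPM in sg492 replicate 1 and 0.00 TPM in replicate 2, with 0.00 and 1.00 TPM in the controls; Krt25, Krt27, Krtap8-1 and Tchh, the trichohyalin gene, showed the same single high library (these genes were chosen after their values were seen). The part of adjoining skin in these values was not tested.

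Keratins of the basal epidermis were above the controls in both sg492 libraries. Krt14 stood at 0.00 and 1.04 TPM in the controls and 4.31 and 4.03 TPM in sg492 tumors, Krt5 at 0.00 and 0.19 TPM against 4.02 and 1.89 TPM, and Krt6a, a keratin of the follicle and of wounded epidermis chosen after its values were seen, at 0.00 and 0.14 TPM against 2.3 and 2.44 TPM. In sg495 tumors they were at 0.33 TPM or less. The 14 keratinocyte markers summed to 4.72 and 8.44 TPM in the controls, 30.0 and 15.1 TPM in sg492 and 4.93 and 4.40 TPM in sg495; Krt1, Krt10, Lor and Flg, of the differentiated epidermis, lay within the range of the controls in both sg492 libraries. Krt5, Krt14 and Krt17 passed the expression filter only through the sg492 libraries, so no count is given for this list.

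**Figure D5:**
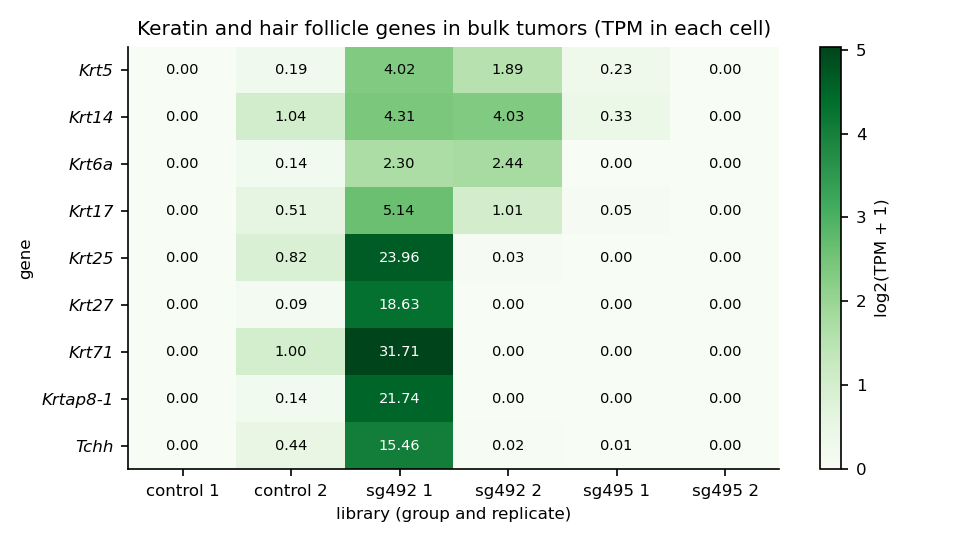
TPM of 9 keratin and hair follicle genes in the 6 bulk tumor libraries, printed in each cell, with color on a log2(TPM + 1) scale. Hair genes (Krt25, Krt27, Krt71, Krtap8-1, Tchh) are high in sg492 replicate 1 alone, at 15.5 to 31.7 TPM, whereas Krt14 and Krt6a are present in both sg492 libraries.

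Several tumor-cell programs had medians near the median of all genes. The 40 cell cycle and replication genes had a median of -0.03. For 11 of the 40 both sg492 libraries lay below both controls (11.3% of all genes), and for 4 above both (31%). Median-of-ratios scaling put the list median at -0.10, against -0.01 for all genes, and left 3 members positive. Quantile normalization put it at -0.07 and left 7 positive. Mki67 stood at 75.5 and 73.4 TPM against 82.1 and 88.8 TPM. Gins2, of the replicative helicase complex, was the 1 member with an unadjusted limma p below 0.05. It stood at 55.8 and 52.7 TPM against 37.1 and 38.8 TPM (adjusted p of 0.443). The 32 hypoxia and glycolysis genes had a median of 0.02 and the 23 ATF4 and unfolded protein genes of 0.02. Cytosolic ribosomal protein genes had a median of -0.05, and 16 of 32 had both sg492 libraries below both controls, against 11.3% of all genes. After median-of-ratios scaling all 32 were lower, with a median of -0.12, and after quantile normalization 13 were higher, with a median of -0.01. Hemoglobin and other erythrocyte genes summed to 1852 and 645 TPM in the controls and 639 and 1386 TPM in sg492 tumors, so these transcripts varied within both groups more than between them.

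Genes were also named by rank, among those of at least 5 TPM and 1.5-fold with non-overlapping groups and an unadjusted p below 0.05. In the higher direction 213 genes met this rule, and of the 12 with the largest log2 fold change 10 were GTPases of the list above (Tgtp1, Gbp10, Gbp4, Gbp6, Gbp2, Iigp1, Gbp7, Tgtp2, Igtp and Gbp3); the others were Zbp1 and Prph. Prph, for the intermediate filament peripherin of peripheral neurons, stood at 11.7 and 4.18 TPM in the controls, 35.9 and 23.9 TPM in sg492 tumors and 35.1 and 23.4 TPM in sg495 tumors. In the lower direction 6 genes met it, 4 of them ribosomal protein pseudogenes (Rpl17-ps9, Rpl9-ps4, Mrpl23-ps1 and Rps25-ps1), whose reads are shared with their parent genes and whose levels are therefore uncertain. The protein-coding genes were Slpi, an inhibitor of neutrophil proteases, at 7.67 and 8.25 TPM against 4.33 and 4.16 TPM (log2 fold change -0.77), and Mynn, a zinc-finger protein, at 21 and 22.7 TPM against 13.0 and 13.6 TPM (-0.67).

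The guides were compared directly, since both were measured against the same controls. No gene was called between sg492 and sg495 tumors with limma (0%), with 775 genes higher in sg492 at an unadjusted p below 0.05 (5.71%) and 597 lower (4.4%). For the 12 genes named in the higher direction, the unadjusted p of the difference between guides ran from 0.51 to 0.99. In the lists, the GTPases had a median of 1.66 for sg492 and 1.81 for sg495, antiviral genes 0.86 and 0.98, MHC class I 0.95 and 1.25, MHC class II 0.98 and 1.37, leukocytes 0.58 and 0.98, and T cells 0.26 and 0.81. The median difference between the guides, sg492 minus sg495, was -0.42 for the IFN-γ signature, -0.40 for MHC class II, -0.41 for leukocytes and -0.58 for T cells. The ATF4 and unfolded protein genes had a median of 0.02 for sg492 and -0.40 for sg495, with 16 of 23 above sg495 at an unadjusted p below 0.05, and cholesterol synthesis had -0.21 and -0.05, with 7 of 22 below sg495. C4b had a log2 difference of -0.78 between the guides, with a limma adjusted p of 0.160.

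The sg492 effect in bulk tumors was last set against that in the other sample types by a test of the difference. Against cultured cells 5 genes were called (0.0368% of those tested) and against sorted tumor cells 5 (0.0368%); none was an interferon-inducible gene. Gbp2 stood at 9.29 and 1.26 TPM in sorted control cells and 12.9 and 10.5 TPM in sorted sg492 cells, and below 1 TPM in all 4 cultured libraries of these groups; the bulk effect exceeded the sorted effect by 0.60 on the log2 scale with an adjusted p of 0.850, and the cultured effect by 1.78 with an adjusted p of 0.764. Summed over the 18 GTPases, sorted cells held 49.1 and 8.98 TPM in the controls and 58.4 and 49.6 TPM in sg492, while sorted sg495 cells held 880 and 617 TPM. Replicate 2 of the control was thus the low library in sorted cells as well as in bulk tumors. Whether bulk and sorted libraries of the same number came from the same tumor is not given in the sources used here. The test of the difference treated them as independent. In cultured cells the sums were 11.0 and 12.8 TPM against 12.8 and 14.8 TPM, and 1 of the 18 genes had a mean of at least 1 TPM. H2-K1 showed a difference in sign that did not pass the adjusted threshold: it was higher in sg492 bulk tumors (0.95), whereas in culture it stood at 32.2 and 30.4 TPM in the controls and 20.4 and 15.9 TPM in sg492 (-0.76), a difference of 1.71 with an adjusted p of 0.391. Ptprc was at 0.07 TPM or less in all sorted and cultured libraries of these groups, so the sorted cells held little leukocyte RNA.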

How the data were processed

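RNA was measured in bulk B16F10 tumors by poly(A) selection and single-end sequencing. Per the sources used here, the authors trimmed reads with cutadapt 2.3, aligned them with STAR 2.7.0d to mm10 and estimated expression with RSEM 1.3.1, and they deposited TPM values per gene and library. TPM keep no read number, so the authors' DESeq2 test on estimated counts was not repeated.

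Libraries were grouped by their labels. Genes averaging 1 TPM or more in the 4 control and sg492 libraries (13579) were fitted as log2(TPM + 1) with limma 3.58.1 (R 4.3.3; lmFit, eBayes with trend) over 6 bulk libraries, 2 for each of 3 groups, 2-sided, with Benjamini-Hochberg adjustment over all genes; calls needed a 1.5-fold change besides an adjusted p under 0.05. Differences from sorted and cultured cells were interaction contrasts over 18 libraries. Gene types and positions came from GENCODE M21 (GRCm38), which held 13541 of the genes (99.72%), and promoters from RefSeq. Tables and figures were made with Python 3.11.15, pandas 2.3.3 and matplotlib 3.10.9, and the fit was checked on simulated data.

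The genes named were Nr2f6, genes and receptors named by the study, members of 43 gene lists, any gene called and, in each direction, the 12 largest log2 fold changes among genes of at least 5 TPM and 1.5-fold with an unadjusted p below 0.05 whose groups did not overlap, leaving out Gm, Rik and small RNA names; exceptions are stated. Members and lists were chosen with earlier results of these data known. Alternatives were the pseudocount, the filter, scaling, the trend, the libraries in the fit, a replicate block and leaving out each library.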

Additional observations from a re-analysis of the deposited data

Results flagged for a closer look

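The sg492 effect differed between bulk tumors and cultured cells for 5 genes, and between bulk tumors and sorted tumor cells for 5, by the test of the difference itself with limma. Krt6a, a keratin of follicle and wounded skin, had a difference of 1.66 on the log2 scale against each sample type (adjusted p of 0.00738); it stood at 0.00 and 0.14 TPM in the controls and 2.3 and 2.44 TPM in sg492 tumors. Gm24798 and Gm22108, which carry identical values and thus cannot be told apart, had 1.64 against each, from 0.00 TPM in both controls to 2.29 and 1.96 TPM. These 3 genes passed the expression filter only through the sg492 tumors and were listed at 0 in the sorted and cultured control and sg492 libraries, so that a difference was built into their selection. Tubb2b, a neuronal β-tubulin, had -2.52 against cultured cells, where it stood at 0.81 and 0.32 TPM in the controls and 9.13 and 8.90 TPM with sg492, while in bulk tumors it stood at 4.38 and 2.91 TPM and at 4.28 and 4.10 TPM. Gm15501 had -0.60 against cultured cells (adjusted p of 0.0458), at 958 and 1041 TPM in bulk controls and 763 and 763 TPM in sg492 tumors. Mir678, a microRNA gene, had 5.63 against sorted cells, where both sg492 libraries were listed at 0, and RP23-121N17.3 had -4.29, with bulk controls at 7.04 and 5.07 TPM and sg492 tumors at 0.25 and 0.00 TPM. In the fit limited to genes of at least 5 TPM no gene was called in either difference.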

How the results depend on the processing

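With 2 libraries a group, single libraries decide much. Genes called between sg492 and control, 0 in the reported fit, numbered 1 with a pseudocount of 0.1 TPM, 7 without a trend and 16 (15 higher, 1 lower) with all 18 libraries, and ran from 0 to 31 when each library was left out, with 31 without control replicate 1, among them Gbp4, Gbp6, Gbp2, Gbp7 and Igtp. The 1133 genes at an unadjusted p below 0.05 became 660 (without sg492 replicate 2) to 1345 (without control replicate 1). The 603 non-overlapping genes at 1.5-fold became 917 with a pseudocount of 0.1 TPM, 292 at 5 TPM or more, and 700 to 1097 with a library left out. Calls between guides (0) became 5 without a trend, 83 with 18 libraries and 0 to 1 with a library left out. Calls of the difference from cultured cells (5) became 2 with the pseudocount of 0.1 TPM, 9 without a filter, 0 at 5 TPM or more, 0 after quantile normalization, 8 without a trend and 7 to 114 with a library left out; those from sorted cells (5) became 11, 30, 0 (at 5 TPM or more), 9 and 11 to 131. Leaving out libraries moved list medians from 0.61 to 1.10 for antiviral genes, 0.87 to 2.55 for GTPases, 0.53 to 1.29 for MHC class I, 0.49 to 1.40 for MHC class II, and -0.31 to -0.085 for cholesterol synthesis, which had -0.28 after median-of-ratios scaling. Fkbp10 had -0.26 without control replicate 1 and turned to 0.12 without control replicate 2. Over the named genes and settings, 318 values kept direction and side of the threshold and 5, all without control replicate 1, gained a call; the cause was not tested. Between the bulk groups, replicate numbers did not pair the libraries (correlation of deviations -0.123, 0.003 and 0.03). Bulk libraries were not compared in this way with sorted libraries of the same number. With a replicate block, 974 genes had an unadjusted p below 0.05 and 0 were called in either difference between sample types, and with the sg492 numbers exchanged 1082 had such a p. TPM give no depth, so counting error is unknown.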

Other observations

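Single genes with non-overlapping groups, chosen after their values were seen, included immune and stress genes. Ms4a4c, of the membrane-spanning MS4A family, stood at 11.9 and 6.79 TPM in the controls and 26.2 and 25.7 TPM in sg492 tumors. Mup10, a major urinary protein, stood at 6.30 and 6.05 TPM against 14.2 and 12.3 TPM. Gsdmd, the pore-forming effector of pyroptosis, stood at 7.64 and 7.02 TPM against 12.7 and 12.7 TPM. Hmox1, the heme oxygenase, stood at 129 and 130 TPM against 208 and 165 TPM, and at 142 and 129 TPM in sg495 tumors. None had a limma adjusted p below 0.05.

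Gene types differed in direction on the deposited TPM. At an unadjusted limma p below 0.05, 817 of 11957 protein-coding genes were higher in sg492 tumors and 136 lower. The shares over all genes were 6.74% and 1.61%. Of 625 processed pseudogenes tested, 27 were higher and 54 lower. Over all genes at such a p, 80.8% were higher on the deposited TPM and 52.3% after median-of-ratios scaling. Gene types were not counted again after scaling. Reads of a pseudogene can come from its parent gene.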
